A study of Mus musculus with 22 samples.

Results

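Oct4 ChIP-seq peaks that were called in aortic tissue of SMC Oct4-WT/WT mice and not in that of SMC Oct4-Δ/Δ mice, called wild-type-only peaks here, are described with their nearest genes. A wild-type peak on chromosomes 1 to 19 was taken when its interval shared no base with any knockout peak, and peaks in dense bins were left out, a dense bin being a stretch of 1 Mb with 20 or more summits in either genotype. This gave 562 wild-type-only peaks, of 5455 wild-type peaks in all and of 2840 on these chromosomes outside dense bins, a share of 19.8% (exact 95% binomial interval 18.3 to 21.3). The other 2278 wild-type peaks outside dense bins, each of which shared at least 1 base with a knockout peak, are called shared. A further comparison was made with the 2546 knockout-only peaks, 52.7% of the 4828 knockout peaks outside dense bins. The wild-type-only peaks were selected on the peak calls of both genotypes, so peak heights are given as a description with no test, and intervals on shares cover counting error within these lists only.

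The study followed the loss of Oct4 (Pou5f1) from smooth muscle cells (SMC) in atherosclerosis. Each genotype is 1 ChIP sample made from pooled aortic segments of 15 mice, taken from the root and arch to the point where the carotid divides, after 18 weeks of Western diet. All mice were apoE-deficient and of strain C57BL/6, and carried a tamoxifen-inducible Cre under the Myh11 promoter with an eYFP lineage reporter; this Cre lies on the Y chromosome, so the mice were males, and the wild-type mice were littermates. Cre deletes Oct4 only in cells that express Myh11, while the tissue holds SMC, macrophages and other cell types, so Oct4 in the other cell types stays intact in the knockout. With 1 sample per genotype there is no spread between replicates, and a difference between the genotypes cannot be told apart from a difference between these pools. Peak lists hold no expression, so neither the tissue nor the deletion could be checked here.

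Oct4 is a POU-family transcription factor, best known as a regulator of pluripotency in early embryos and stem cells, where it binds an octamer sequence, often next to a SOX site. In most adult tissue the gene is largely silent. In ChIP-seq, DNA bound by the factor is pulled down and sequenced, and a peak is a place where the fragments pile up more than the background expects; its summit is the base with the most fragments.

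Tandem runs lay under many of the highest wild-type-only peaks. Of the 26 with 12 or more fragments at the summit, 17 held a tandem run within 50 bp of it, and of the 12 with 13 or more, 9 did. A tandem run means at least 12 times the same base or at least 20 bases of a repeated unit of 2 to 6; over all wild-type-only peaks the share was 40.7%. A repeat with a unit longer than 6 bases does not count as a run. The following intervals of these peaks are given on the plus strand of GRCm38.p6 with the longest run in capitals. Atrnl1 is shown as a peak of like height with no run by this rule, though its sequence repeats a longer unit with mismatches:
Vmn2r12 (chr5:109129480-109129539): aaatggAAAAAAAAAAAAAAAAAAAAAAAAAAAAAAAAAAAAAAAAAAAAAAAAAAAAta
C130032M10Rik (chr9:114520618-114520687): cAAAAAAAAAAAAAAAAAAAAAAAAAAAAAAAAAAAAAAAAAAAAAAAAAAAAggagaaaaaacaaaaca
Tenm4 (chr7:96315089-96315148): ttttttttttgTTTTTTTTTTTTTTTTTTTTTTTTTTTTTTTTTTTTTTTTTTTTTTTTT
Ern1 (chr11:106500659-106500702): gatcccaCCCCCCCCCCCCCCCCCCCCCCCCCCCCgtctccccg
Ap1g1 (chr8:109796901-109796950): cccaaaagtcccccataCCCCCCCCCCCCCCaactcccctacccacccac
Atrnl1 (chr19:57926572-57926649): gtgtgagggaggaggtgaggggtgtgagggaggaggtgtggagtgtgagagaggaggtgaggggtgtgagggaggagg

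Among the wild-type-only peaks next to genes, the CCAAT box recurred. This box, in either orientation, is bound by the trimeric factor NF-Y and is a common element of promoters, among them those of histone and cell-cycle genes. The 101 bp around the summit are shown for peaks within 1 kb of a start, with each CCAAT or its complement ATTGG in capitals. For H3f3b and Cdca2 the stretch was extended to take in the octamer, which is also in capitals:
Dnm2 (chr9:21424813-21424913): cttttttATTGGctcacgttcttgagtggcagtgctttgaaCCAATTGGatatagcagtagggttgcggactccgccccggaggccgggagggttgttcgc
Atp5b (chr10:128083037-128083137): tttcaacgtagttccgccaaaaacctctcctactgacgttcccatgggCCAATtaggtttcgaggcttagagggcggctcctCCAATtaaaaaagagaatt
Zswim4 (chr8:84237216-84237316): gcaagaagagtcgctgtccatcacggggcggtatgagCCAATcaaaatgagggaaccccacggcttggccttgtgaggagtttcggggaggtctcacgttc
Hist1h2bj (chr13:22043084-22043184): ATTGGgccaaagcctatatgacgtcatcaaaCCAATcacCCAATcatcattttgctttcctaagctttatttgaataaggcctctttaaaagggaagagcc
Rnf5 (chr17:34603708-34603808): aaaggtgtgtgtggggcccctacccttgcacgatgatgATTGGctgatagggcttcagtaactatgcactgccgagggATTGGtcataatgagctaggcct
Flad1 (chr3:89411856-89411956): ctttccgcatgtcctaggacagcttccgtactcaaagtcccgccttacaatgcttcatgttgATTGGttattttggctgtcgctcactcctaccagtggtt
Ppm1b (chr17:84957482-84957582): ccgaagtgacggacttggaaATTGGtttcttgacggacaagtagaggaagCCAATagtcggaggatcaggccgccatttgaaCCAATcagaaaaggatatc
H3f3b (chr11:116024561-116024712): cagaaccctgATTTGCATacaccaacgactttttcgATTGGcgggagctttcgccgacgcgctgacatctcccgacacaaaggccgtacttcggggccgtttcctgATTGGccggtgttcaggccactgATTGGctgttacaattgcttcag
Cdca2 (chr14:67715755-67715869): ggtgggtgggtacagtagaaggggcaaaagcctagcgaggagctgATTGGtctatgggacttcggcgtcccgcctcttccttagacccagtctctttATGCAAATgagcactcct

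The octamer ATGCAAAT, or ATTTGCAT on the other strand, was found near 17 wild-type-only summits, and 2 of those outside repeat-masked sequence are shown with the octamer in capitals:
Ncam1 (chr9:49769951-49769990): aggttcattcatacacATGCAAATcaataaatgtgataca
Cerk (chr15:86194971-86195010): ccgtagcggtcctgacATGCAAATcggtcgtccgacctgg

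The wild-type-only peaks were low. The number of overlapping fragments at the summit, recovered from the deposited fold enrichment, had a median of 9 (quartiles 7 and 10, range 5 to 16), against a median of 12 (quartiles 10 and 18, range 5 to 82) for shared peaks and 10 (quartiles 9 and 11, range 5 to 22) for knockout-only peaks. In fold enrichment the medians were 6.86, 8.91 and 7.52. Of the wild-type-only peaks, 161 (28.6%) had 5 to 7 fragments, against 32 of the shared peaks (1.40%), while 26 had 12 or more. The smallest summit that passed the call was 5 fragments for either genotype, where 0.458 fragments were expected by background for the wild-type and 0.462 for the knockout, so a knockout site of fewer fragments was not detectable at this depth. The median width was 42 bp (range 41 to 197).

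**Figure D1:**
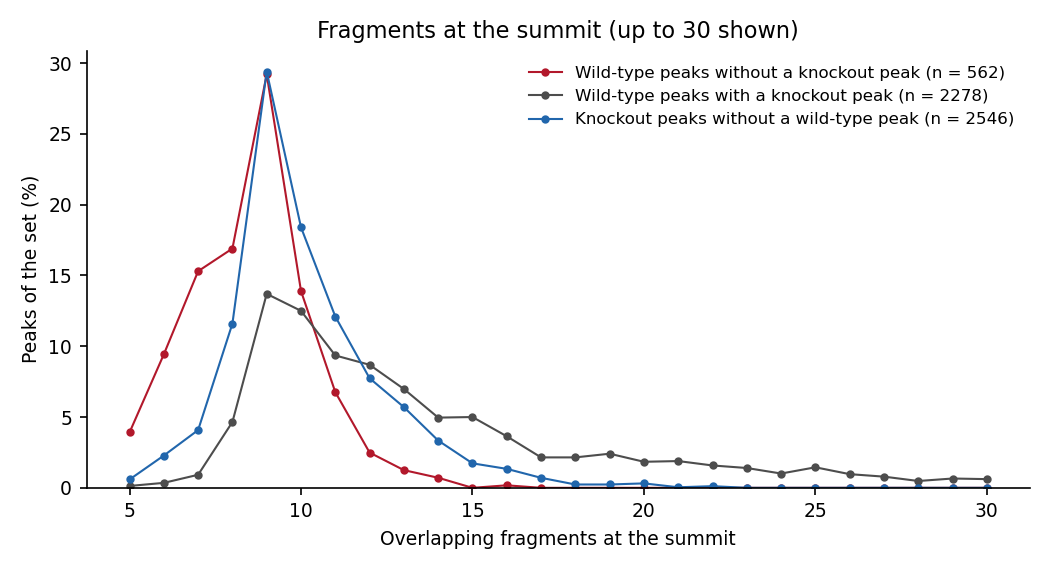
Share of peaks in percent (y axis) by the number of overlapping fragments at the summit (x axis), for wild-type-only, shared and knockout-only peaks outside dense bins, 1 ChIP sample per genotype. The wild-type-only peaks have a median of 9 fragments and none above 16, and the shared peaks have a median of 12 and reach beyond the axis to 82.

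The highest wild-type-only peak, with 16 fragments and a fold enrichment of 11.7, was an intergenic poly-A stretch of 52 bases 31.6 kb from the start of Vmn2r12, a vomeronasal receptor gene. Next came 4 peaks of 14 fragments (fold 10.3). One lay in an intron of Trim71, 4953 bp from the start of C130032M10Rik, again on a poly-A stretch of 52 bases. Another was intergenic, 7.93 kb from the start of Pcdh20, a protocadherin. The third of this height was on a run of 14 C in an intron, with the start of Ap1g1, a subunit of the AP-1 clathrin adaptor, 18.0 kb away. The fourth lay in an intron 316 kb from the start of Atrnl1, an attractin-like gene, and was the one of the 4 with no run by the rule used. At 13 fragments (fold 9.60) were 7 peaks, nearest to Oit3, Id4, Ern1, Tenm4, Unc5d, Hnf4g and Grik2. Among them Id4, an inhibitor of bHLH factors, was 9865 bp away, Ern1, the endoplasmic reticulum stress sensor IRE1, was 12.8 kb away, and Unc5d, a netrin receptor, was 134 kb away. At 12 fragments (fold 8.91) 14 peaks were tied, and the 3 of them closest to a start were nearest to 1110017D15Rik, Gtf2ird1 and Ptbp3. Gtf2ird1, a transcription factor of the Williams syndrome region, had its summit 1888 bp from the start in an intron, in sequence whose 31-mers had a median of 505 copies in the assembly. The nearest knockout peak was 114 bp from this peak, and 394 bp from the Hnf4g peak of 13 fragments.

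The rule asks for a gap to every knockout peak. That of the wild-type-only peaks had a median of 132 kb (range 2 bp to 2564 kb), was over 100 kb for 311 peaks (55.3%) and at most 1 kb for 54 (9.61%). From knockout-only peaks to the nearest wild-type peak the median was 241 kb. At the limit of the rule, the closest were a peak of 7 fragments nearest to Gm14226, with a knockout peak of 6 fragments 2 bp away, and a peak of 5 fragments at 4931408C20Rik, with a knockout peak of 5 fragments 11 bp away. Just outside it, a wild-type peak of 7 fragments near Smgc shared 11 bases with a knockout peak of 6, and 1 of 8 fragments near Elobl shared 12 bases with a knockout peak of 8. Among bins of 1 Mb, the fullest that was kept held 19 summits in each genotype on chromosome 2 and gave 1 wild-type-only peak. A bin on chromosome 4 with 20 wild-type and 8 knockout summits was left out, and 19 of its wild-type peaks had no knockout peak.

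The nearest protein-coding gene was taken by the distance from the summit to a transcript start (GENCODE M21), at any distance, which does not show that the gene is regulated. The 562 peaks had 472 nearest genes, 2.28% of the 20698 protein-coding genes of these chromosomes, while the shared peaks had 1856, or 8.97%. Of the 472 genes, 424 were nearest to 1 wild-type-only peak, 33 to 2 and 15 to 3 or more. Of them 125 were also nearest to a shared peak, 26.5% of the 472 against the 8.97% of all genes, and 347 were not. The distance to the start had a median of 32.0 kb (quartiles 9.05 and 140 kb), against 34.2 kb for shared and 25.6 kb for knockout-only peaks.

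Summits within 1 kb of a start made up 6.41% of the wild-type-only peaks (36 of 562, interval 4.53 to 8.76). The share was 2.55% of shared peaks (58 of 2278, interval 1.94 to 3.28) and 2.55% of knockout-only peaks (65 of 2546, interval 1.98 to 3.24). With summits of equal height set side by side, the shares of wild-type-only and shared peaks were 8.07% and 3.12% at 5 to 7 fragments, 6.32% and 0.943% at 8, 5.49% and 1.93% at 9, 7.69% and 3.16% at 10, and 3.39% and 2.11% at 11 to 13. The wild-type-only share was the higher at each height, though the intervals of the sets overlapped at each. Within 10 kb lay 26.7% of the wild-type-only summits (interval 23.1 to 30.6), 23.0% of the shared and 27.5% of the knockout-only summits. Within 100 kb the shares were 70.5% (66.5 to 74.2), 71.5% and 76.2% (74.5 to 77.9), the knockout-only share being the highest. Introns held 41.8% of the wild-type-only summits (interval 37.7 to 46.0) and 47.9% of the shared (45.9 to 50), and 52.7% and 47.5% were intergenic. UTRs held 12 wild-type-only summits and coding exons 4.

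**Figure D2:**
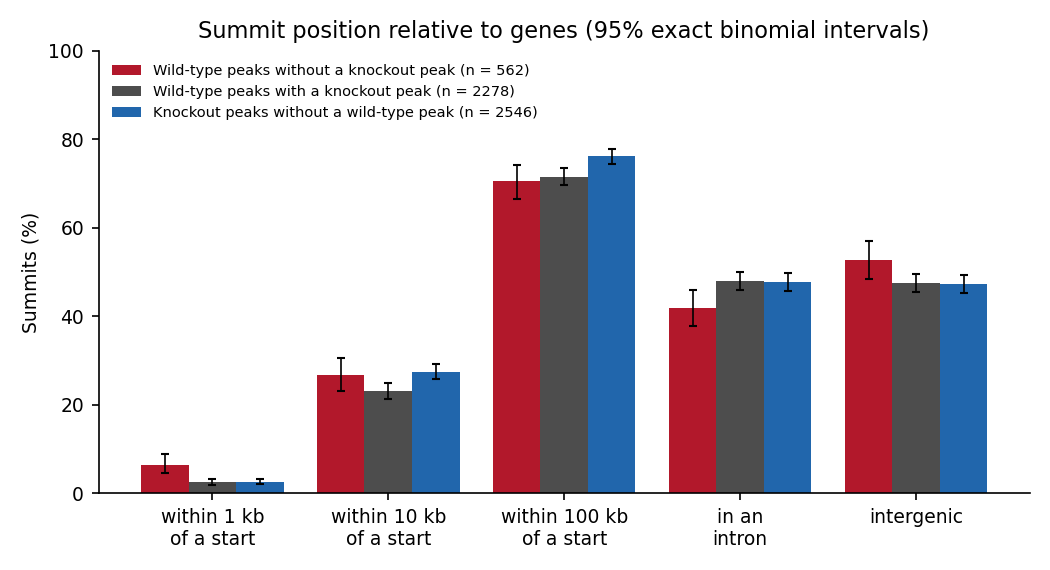
Share of summits in percent (y axis) within 1, 10 and 100 kb of a protein-coding start, in introns and between genes, for wild-type-only, shared and knockout-only peaks; error bars are exact 95% binomial intervals. The 6.41% of wild-type-only summits within 1 kb stands above the 2.55% of the other sets, while within 100 kb the 76.2% of knockout-only summits is the highest share.

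The 36 wild-type-only peaks within 1 kb belonged to 30 genes. The closest were 36 bp from a start, at Cdca2, which encodes a protein phosphatase 1 subunit of mitotic chromosomes (chr14:67715794-67715888, 7 fragments), and at Flad1, the FAD synthase (chr3:89411869-89411919, 8 fragments). Dnm2, the dynamin that cuts endocytic vesicles from the membrane, had peaks 45 and 148 bp from its start, of 8 and 7 fragments. Zswim4 had peaks of 9 fragments at 46 and 211 bp. Atp5b, the beta subunit of mitochondrial ATP synthase, had peaks of 6 and 8 fragments at 63 and 186 bp. At the neighbouring histone genes Hist1h2ag and Hist1h2bj, 3 peaks of 8 to 10 fragments lay within 852 bp, those at 61 and 80 bp between the genes and the one at 612 bp beyond Hist1h2ag. No knockout peak lay within 10 kb of the peaks of Dnm2, Zswim4, Atp5b or these histone genes. H3f3b, which encodes the histone variant H3.3, had a peak of 9 fragments in its UTR at 158 bp (chr11:116024639-116024691). Rnf5, a ubiquitin ligase of the endoplasmic reticulum, had 7 fragments at 68 bp, and Sytl3, a synaptotagmin-like protein, 7 fragments at 85 bp. A poly-A or poly-T run marked the peak of Nmi, an interactor of STAT and Myc proteins, with 10 fragments at 164 bp.

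At these starts the CCAAT box was within 50 bp of 15 of the 36 summits, a share of 41.7% (interval 25.5 to 59.2). Of the 58 shared summits within 1 kb of a start, 5 had it (8.62%, interval 2.86 to 19), and of the 65 knockout-only summits 4 did (6.15%, interval 1.70 to 15.0). Among windows of the same 101 bp at all 52063 protein-coding starts it was in 18.0% when centred 60 bp before the start, in 18.2% at 100 bp before it and in 11.7% at the start itself. The box was looked for after it had been seen in the sequences, so these shares are a description. Peaks at 1 promoter share their sequence; counted by gene, 12 of 30 genes had the box (40%), against 5 of 57 and 4 of 62. It was at 11 of the 17 wild-type-only summits within 200 bp of a start. The sets were not matched for distance to the start within 1 kb, and what part distance has in these shares was not tested. The 12 genes were Flad1, Zswim4, Dnm2, Atp5b, H3f3b, Hist1h2ag, Hist1h2bj, Hist1h3f, Cdca2, Sp1, Rnf5 and Ppm1b. Of these, Sp1, the zinc finger factor of GC boxes, had its peak of 7 fragments 238 bp from the start, Hist1h3f, an H3 histone gene, 7 fragments at 374 bp, and Ppm1b, a serine/threonine phosphatase, 6 fragments at 467 bp. Away from starts the box was no more frequent at the summits than beside them: among wild-type-only summits beyond 1 kb with no tandem run it was in 16% (49 of 307), while windows 1000 bp to each side of all wild-type-only summits had it in 16.1%.

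**Figure D3:**
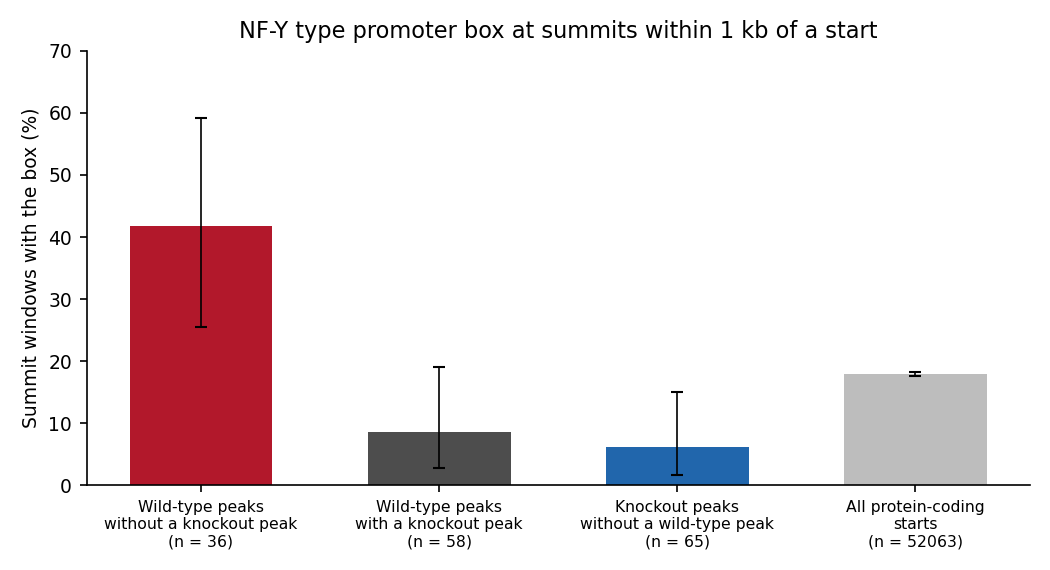
Share of 101 bp windows in percent (y axis) that hold the promoter box bound by NF-Y, around summits within 1 kb of a protein-coding start in the 3 sets of peaks and 60 bp before all protein-coding starts; error bars are exact 95% binomial intervals and n is the number of windows. The wild-type-only summits are at 41.7%, above the 18.0% of all starts, and the shared and knockout-only summits are below it. The sets are not matched for distance to the start within 1 kb.

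The other peaks within 1 kb lay at genes of several kinds, and 10 of the 36 held a tandem run. Has2, a hyaluronan synthase of the matrix, had 7 fragments on a poly-T or poly-A run of 37 bases 918 bp from a start, in an intron of the antisense gene Has2os, and the nearest knockout peak was 1443 kb away. Tet1, which oxidises 5-methylcytosine, had 8 fragments on a poly-C or poly-G run of 27 bases at 840 bp. Runs also lay under the peaks of Sfpq, a splicing factor, with 9 fragments at 894 bp, and Mpnd, with 9 at 172 bp. Sf3a3, a part of the U2 snRNP, had 9 fragments at 774 bp with no run.

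Apoe and its neighbour Tomm40, the pore of the outer mitochondrial membrane, held 5 wild-type-only peaks within 4700 bp (chr7:19697069-19701768), in sequence found once in the assembly. The peaks of Apoe had 6, 8 and 7 fragments, at 40, 66 and 1158 bp from its start. In the knockout 3 peaks of 5 to 7 fragments lay within 10 kb of this locus, all at other positions than the wild-type peaks. The mice of both genotypes carry a disrupted Apoe gene; what part this has in the signal was not tested.

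Wild-type-only peaks also came in groups. Joined at 10 kb, the 562 peaks formed 499 loci, and 31 loci held 2 or more, with 94 peaks in all. In 11 of these 31 loci no knockout peak lay within 10 kb, among them Prox1, Slc30a4, Mcl1, Ksr1 and Il7r. The gene with the most was Snurf, in the imprinted region of chromosome 7, with 10 peaks of 5 to 9 fragments 137 to 288 kb from its start, all in sequence of 8 to 46 copies; within 10 kb of its 3 groups lay 2, 6 and 3 knockout peaks. Gm14226 had 8 peaks within 5778 bp on chromosome 2, where 4 further wild-type peaks were shared and the knockout had 12 peaks, 8 of them at other positions. Hnf4g, a nuclear receptor of the gut, was the nearest gene, 476 to 497 kb away, of 7 peaks of 7 to 13 fragments at the start of the chromosome 3 assembly, where 9 and 5 knockout peaks of 6 to 21 fragments lay within 10 kb of the 2 groups. Smgc, a mucin-related gene of the submandibular gland, had 7 peaks within 3584 bp, in a non-coding exon of Muc19 58.8 to 62.3 kb away with 7 to 8 copies and a GC content of 62.2 to 64.7%. Around these there was 1 knockout peak within 10 kb, of 6 fragments. Sprr2a2, of the small proline-rich proteins of the epidermis, had 6 peaks.

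Ccr1, a chemokine receptor of monocytes and neutrophils, had 5 peaks of 5 to 7 fragments within 4671 bp, 31.6 to 36.3 kb from its start, in sequence found once in the assembly. The 3 knockout peaks within 10 kb of them, of 10 to 32 fragments, were all shared with the wild-type. Il7r, the receptor of interleukin-7, had 2 peaks of 8 and 11 fragments 26.2 and 26.3 kb away, with no knockout peak within 100 kb. Galr1, with 11 knockout peaks within 10 kb, and Gm9495 had 4 peaks each, and Csmd3, Zfp709, Abcg2, Vmn2r49 and Grik2 had 3 each, like Apoe. The peaks of Csmd3, a transmembrane protein, and Grik2, a kainate glutamate receptor, were spread over 171 to 462 kb and 327 to 1214 kb from the start.

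By function, the nearest genes were read against 16 gene lists with 2785 matched genes, of which 78 were nearest to a wild-type-only peak (2.80%, interval 2.22 to 3.48) against the 2.28% of all protein-coding genes. Since a gene with a large empty surrounding is nearest to more of the genome, the share of sequence outside dense bins whose nearest start belongs to a list is given beside its share of peaks. Over all lists, these were 17.9% of the sequence and 17.4% of the peaks (98 of 562).

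The list with the most genes was that of cell adhesion through cadherins, contactins and neurexins, with 20 of 69 genes (29.0%, interval 18.7 to 41.2). Its genes were nearest to 24 wild-type-only peaks (4.27%), and 4.29% of the sequence lay nearest to them. The median distance was 387 kb, and 17 of the 24 peaks held a tandem run, that of Pcdh20 included. The closest were Pcdh20 at 7.93 kb, Cdh18, a cadherin, at 11.3 kb with 8 fragments on a poly-A or poly-T run, and Lsamp, a neuronal adhesion protein, at 15.1 kb with 8 fragments. Ncam1, the neural cell adhesion molecule, had a peak of 8 fragments in an intron at 28.8 kb. Guidance cues and receptors, the genes of directed migration, had 6 of 67 genes (8.96%), which were Epha5, Unc5d, Slit3, Flrt2, Epha7 and Flrt3, at 69.8 to 706 kb. Their share of peaks was 1.07% and their share of sequence 1.81%. A tandem run lay at 4 of their 6 peaks, and the nearest knockout peak was 56 bp from the peak of Epha7.

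Growth factor signalling (PDGF, FGF, TGF-beta, BMP, Wnt and Notch) had 7 of 110 genes (6.36%), with 1.25% of the peaks and 1.16% of the sequence. The closest was Fgf14 at 8.73 kb with 9 fragments, on a poly-A or poly-T run in sequence with a median of 18 copies. Pdgfb, the B chain of platelet-derived growth factor and a mitogen of SMC, had 8 fragments at 17.3 kb, in an intron of Gm41361 and in sequence with a median of 148 copies. Rspo3, an enhancer of Wnt signals, followed at 53.4 kb, also on a poly-A or poly-T run. Smad7, the inhibitor of TGF-beta signalling, had 9 fragments at 91.3 kb in sequence found once.

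SMC contractile and cytoskeletal genes numbered 3 of 61 (4.92%, interval 1.03 to 13.7), with 5 peaks (0.890%) and 0.496% of the sequence. Among them were Dst, a cytolinker, with 9 fragments on a poly-C or poly-G run in an intron at 19.6 kb, and Mrtfa, the actin-regulated coactivator of SRF, with 7 fragments in an intron at 19.7 kb. Matrix genes numbered 4 of 104 (3.85%), with 0.712% of the peaks and 1.01% of the sequence, and were Has2, Ltbp2, a protein of the elastic fibre, at 29.4 kb, Col1a2 at 166 kb and Col3a1 at 230 kb, both chains of fibrillar collagens. Markers of macrophages and other leukocytes had 0 of 35 genes (interval up to 10.0%) and 0.136% of the sequence. Endothelial markers had 1 of 24, Prox1, the factor of lymphatic endothelium, with 2 peaks 132 and 133 kb away, which were 0.356% of the peaks against 0.151% of the sequence.

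Of the pluripotency, POU, SOX and KLF factors 2 of 69 were nearest to a wild-type-only peak (2.90%, interval 0.353 to 10.1; 0.356% of the peaks and 0.975% of the sequence), Sox14 at 104 kb and Sox9 at 165 kb. The peak of Sox9, a factor of cartilage and matrix genes, had 11 fragments in sequence found once, and the nearest knockout peak was 241458 bp away. Chromatin regulators had 6 of 75 genes (8%, interval 2.99 to 16.6), with 1.07% of the peaks and 0.502% of the sequence. After Tet1 they were Chd1, a chromatin remodeller, with 12 fragments at 17.9 kb, Tet2 with 10 fragments in an intron at 20.1 kb, Msl2 at 22.9 kb, Kmt2a, a histone H3 methyltransferase, with 10 fragments at 24.4 kb and Arid5b at 75.7 kb.

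Chemokine and cytokine genes had 2 of 80 (2.50%, against the 2.28% of all protein-coding genes), Ccr1 and Il7r. Their 7 peaks made 1.25% of the wild-type-only peaks against 0.427% of the sequence. Of the 7, 5 were the group at Ccr1 and 2 lay within 189 bp at Il7r, so they are not separate sites. Lipoprotein genes had 1 of 62, Apoe, with 0.534% of the peaks and 0.285% of the sequence. Genes of coronary artery disease loci had 2 of 67 (2.99%), Apoe and Dst, with 0.712% of the peaks and 0.561% of the sequence. Ion channels and transporters had 5 of 72 (6.94%), with 0.890% of the peaks and 1.19% of the sequence, the closest being Scn1a, a sodium channel, at 9.94 kb and Slc8a3, a sodium/calcium exchanger, at 15.9 kb. Glutamate and GABA receptors had 3 of 52 (5.77%), Grin3a, Gabra2 and Grik2, with 0.890% of the peaks and 1.26% of the sequence. Olfactory, vomeronasal and taste receptors had 14 of 1489 (0.940%, interval 0.515 to 1.57; 2.85% of the peaks and 2.62% of the sequence), led by Vmn1r203 at 909 bp and Olfr283 at 1597 bp. Genes named Zfp had 4 of 388 (1.03%), with 1.07% of the peaks and 1.40% of the sequence, Zfp273 at 5.37 kb being the closest.

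**Figure D4:**
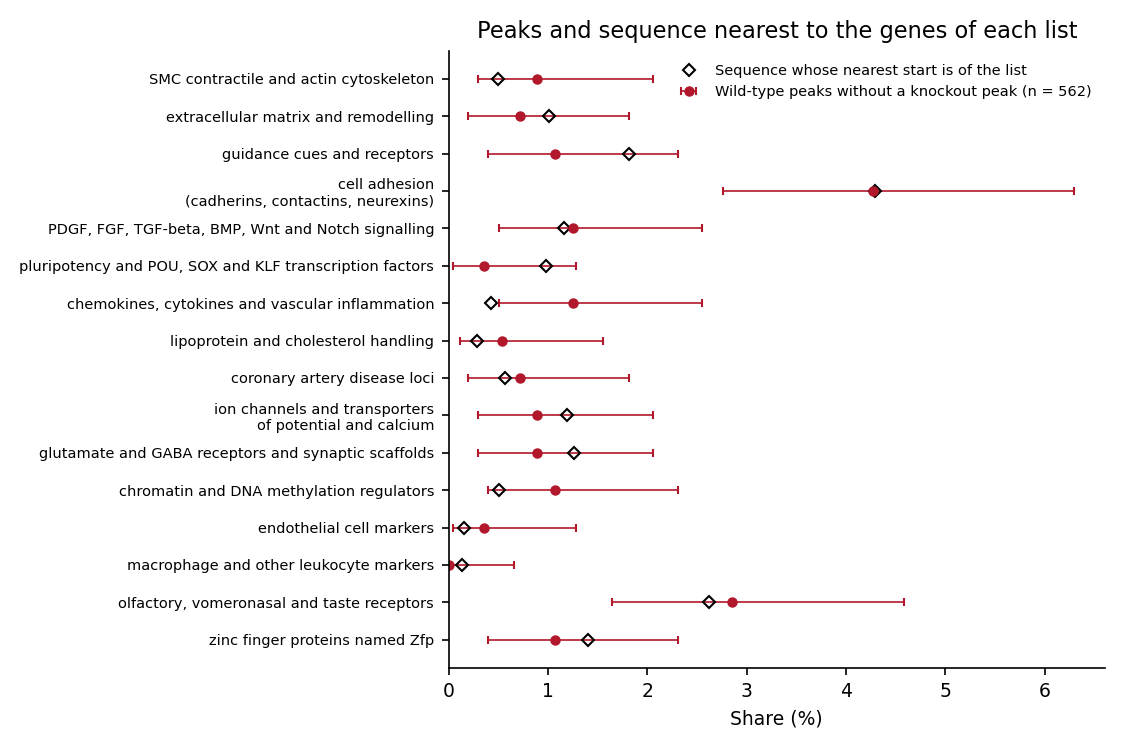
For each gene list, the share of the 562 wild-type-only peaks nearest to a gene of the list (points, exact 95% binomial intervals) and the share of sequence outside dense bins whose nearest start belongs to the list (diamonds), both in percent on the x axis. The adhesion list has the largest share, 4.27% of peaks and 4.29% of sequence, and the interval excludes the sequence share for the chemokine list alone. That interval takes the 7 peaks of the chemokine list as separate, though they lie grouped at 2 genes, 5 at Ccr1 and 2 at Il7r.

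The octamer was within 100 bp of 17 wild-type-only summits (3.02%, interval 1.77 to 4.80) and in 13 of 1124 windows of the same 201 bp 1000 bp to each side (1.16%, interval 0.617 to 1.97). At shared summits it was in 2.55% (58 of 2278) against 1.60% beside them, and at knockout-only summits in 2.91% (74 of 2546) against 1.53%. The windows at all protein-coding starts had it in 1.06%. The wild-type-only share lay close to the shares of both sets called in the knockout. With no dense bins left out it was 1.86% (21 of 1127), against 2.32% of shared peaks (64 of 2761). For 8 of the 17 the whole octamer lay within 50 bp of the summit. It lay in repeat-masked sequence for 10 and outside it for 7, and 11 of the 17 windows were found once in the assembly. By gene, the octamer was closest to the summit at Sval2 (2 bp), Gm7971 (3 bp), Ncam1 (5 bp) and Lsamp (5 bp). At Cdca2 it was 47 bp from the summit and at H3f3b 84 bp, and these with 1110017D15Rik were the 3 within 1 kb of a start. Acvr2a, an activin receptor, was 783 kb from its octamer peak and Cerk, ceramide kinase, 8.78 kb. A knockout peak lay 230 bp from the peak of Cerk. Outside repeats, the 7 were nearest to 1110017D15Rik, Ncam1, Anapc16, H3f3b, Cdca2, Cerk and Sil1.

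Other motifs were searched in either orientation within 100 bp. The AP-1 site TGAGTCA was at 3.38% of the wild-type-only summits and 3.20% beside them, and the KLF site CCACACCC at 1.60% and 1.60%. The SOX site AACAATG was at 2.14% (interval 1.11 to 3.70) and 4.72% beside them (interval 3.55 to 6.12), the lower share being at the summits.

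Tandem runs within 50 bp of the summit were at 229 wild-type-only peaks, 40.7% (interval 36.7 to 44.9), and in 4.27% of the windows beside them. Among shared peaks the share was 26.2% (24.4 to 28.1) and among knockout-only peaks 17.2% (15.7 to 18.7). Poly-A or poly-T made up most of these, at 27.8% of the wild-type-only summits (156 peaks, median run 38 bases) against 9.44% of shared and 11.6% of knockout-only summits. Poly-C or poly-G was at 6.76% (38 peaks, median run 20 bases) against 3.78% and 1.41%. Short tandem repeats had the other order between the wild-type sets, at 6.23% of wild-type-only and 13% of shared summits. Within 100 bp, 3 repeats of TTAGGG in a row, in either orientation, were at 6 wild-type-only summits (1.07%, interval 0.393 to 2.31) against 155 shared summits (6.80%, interval 5.80 to 7.92).

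The share with a run rose with the height of the wild-type-only peaks, from 11.2% at 5 to 7 fragments (18 of 161) to 36.8% at 8, 53.7% at 9, 55.1% at 10 and 69.5% at 11 to 13 (41 of 59). Among shared peaks of these heights it was 15.6%, 16%, 21.2%, 17.5% and 23.0%. From 8 fragments on the intervals of the wild-type-only and shared peaks did not overlap. The knockout-only peaks had 12.4%, 22.3%, 19%, 18.2% and 15.5%, with an interval at 8 fragments (17.7 to 27.5) that overlapped that of the wild-type-only peaks (27.2 to 47.4). With no dense bins left out, the share with a run was 22.4% of wild-type-only peaks (252 of 1127) and 22.6% of shared peaks (623 of 2761), so these sets differed in the share only with dense bins left out. The windows of poly-A or poly-T peaks had starts at a median of 52.8 kb, those of peaks without a run at 29.7 kb. How aligned reads fall on such runs was not tested, since the deposited lists hold peaks and no reads.

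**Figure D5:**
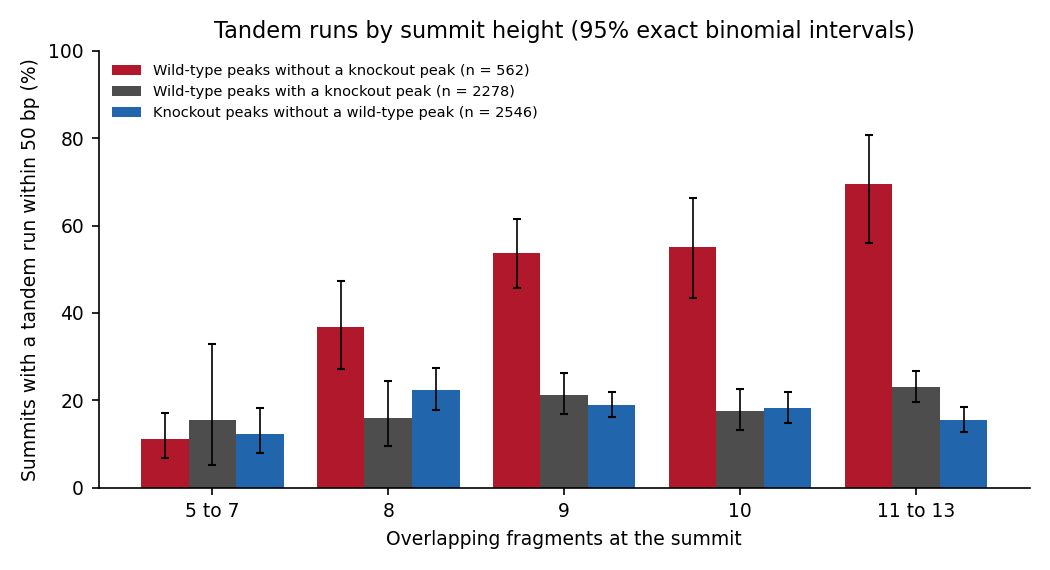
Share of summits in percent (y axis) with a tandem run within 50 bp, by the number of overlapping fragments at the summit (x axis), for wild-type-only, shared and knockout-only peaks; error bars are exact 95% binomial intervals. The wild-type-only share goes from 11.2% at 5 to 7 fragments to 69.5% at 11 to 13, and the shared peaks stay between 15.6% and 23.0%; the comparison is outside dense bins.

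By masked sequence the wild-type sets were alike, and by copies they were not. Repeat-masked bases made up a mean of 54.8% of the 201 bp around wild-type-only summits and 54.4% around shared summits, against 38.8% and 34.0% in windows 1000 bp to each side. The GC content had a median of 41.3% at wild-type-only and 44.3% at shared summits, and 43.3% beside both. As to copies, 59.3% of the wild-type-only windows (333 of 562, interval 55.1 to 63.3) were found once in the assembly by the median of their 31-mers, against 77.7% of shared and 83.2% of knockout-only windows, and 7.47% had 100 copies or more, against 4.17% and 2.83%. The 9 bases GGGATTACA were within 50 bp of 2.14% of the wild-type-only summits (12 peaks), against 9.22% of shared and 9.15% of knockout-only summits; the windows beside them had 0.356%, 0.176% and 0.177%. In each of the 3 sets this word was thus more frequent at the summits than beside them, and whether reads of another source lie under these summits was not tested.

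Across the chromosomes, the wild-type-only share of the wild-type peaks ran from 11.2% on chromosome 16 (11 peaks, interval 5.74 to 19.2) to 39.3% on chromosome 15 (44 peaks, interval 30.2 to 49.0). Chromosome 15 also had the highest density, 4.23 wild-type-only peaks per 10 Mb outside dense bins against 1.13 on chromosome 16, while its density of shared peaks, 6.54, was the lowest. Its 44 peaks formed 37 loci, with 7 peaks in the group near Smgc, and 21 of them held a tandem run. The next highest shares were those of chromosomes 7 (27.4%), 5 and 17 (both 22.5%).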

How the data were processed

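Oct4 ChIP-seq was measured in 1 sample per genotype, each a pool of 15 mice. The authors used Bowtie for alignment to GRCm38.p6, SAMtools to drop duplicate reads and MACS2 for peak calling, with q under 0.05; the control of the call is not given in the sources used here. The deposited peak lists give a score (10 times the -log10 q), the fold enrichment (a ratio of summit pileup plus 1 to expected pileup plus 1), the -log10 p-value and -log10 q-value, and as another value the summit offset. The wild-type and the wild-type over knockout list were equal in all 5455 entries, so the former was used. The single-cell samples of the series were not analysed here.

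Fragments at the summit were recovered from the fold enrichment, each within 9e-06 of a whole number. Distances were taken from the summit to protein-coding transcript starts of GENCODE M21. Sequence, repeat masking (soft-masked bases) and 31-mer copies came from the RefSeq assembly GRCm38.p6, and chromosome names and lengths were checked against the lists. Shares have exact (Clopper-Pearson) 95% binomial intervals, and no test was made, since peaks of 1 sample are not replicates.

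The rule for the peaks and the gene lists were chosen with earlier results of these data known. Genes named were those nearest to the 15 peaks of largest -log10 q (ties by the shorter distance to a start), to peaks within 1 kb of a start, to 3 or more peaks, to octamer peaks, to peaks at the limit of the rule, and list genes. Where over 15 fell under 1 of these, values were given for the closest, and genes with the CCAAT box, examples with runs, and groups of 2 peaks were added after their values were seen. The alternatives were other q limits, overlaps, dense bins, gene sets and windows. Some items that fall under these rules are not reported here. The methods were tested on simulated data. Python 3.11.15, numpy 2.4.6, pandas 2.3.3, scipy 1.17.1, pysam 0.24.0, numba 0.67.0, samtools 1.23.1 and matplotlib 3.10.9 were used.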

Additional observations from a re-analysis of the deposited data

How the results depend on the processing

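No paired analysis was possible because each genotype has a single ChIP sample. Of 45 values under alternatives set out at the start, 38 stayed within 1.5 times (counts) or within the interval (shares). With no dense bins left out, there were 1127 wild-type-only peaks, the repeat-masked share was 46.4% and the octamer share fell from 3.02% to 1.86%, within its interval. When every annotated gene was allowed as nearest gene, 49.5% of summits were within 10 kb of a start and 32 list genes were nearest to a peak. The octamer was in 1.42% of windows of 50 bp to each side and in 21.9% with 1 mismatch allowed (21% at shared summits), and the repeat-masked share was 62.8% in windows of 50 bp. Beyond these, 14 values were computed after the data were seen. Without windows that hold a tandem run there were 333 wild-type-only peaks, 263 nearest genes and 48 list genes, with 45% repeat-masked. With windows found once in the assembly alone there were 333 peaks, 302 nearest genes and 43 list genes, with 44.3% repeat-masked. These changes follow from the peaks, genes or bases that each alternative counts. The share of summits within 1 kb of a start was 7.81% without tandem runs, 9.31% for windows found once and 4.79% with no dense bins left out, and the share of these with the CCAAT box was 57.7%, 45.2% and 33.3%. Shared peaks with no dense bins left out had 3.01% within 1 kb and the box at 9.64% of these. Tandem runs were at 42% of the windows found once and at 22.4% of the summits with no dense bins left out, where shared peaks had 22.6%; the cause was not tested. Depth limits the knockout list to summits of at least 5 fragments, and weaker knockout sites were not detectable.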
